A study of Rattus norvegicus with 12 samples.

Results

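The expression of 9 genes of glutamate and GABA synthesis and transport was followed in rat hippocampal cultures after oxygen-glucose deprivation (OGD), a cell culture model of global brain ischemia. They were the vesicular transporter genes Slc17a6, Slc17a7 and Slc32a1, the glutamate decarboxylase genes Gad1 and Gad2, and the uptake transporter genes Slc1a1, Slc1a2, Slc1a3 and Slc6a11. The genes were chosen by name, not by their measured values, and were found through the transcript that each array probe was designed for. They lay on 12 of 30367 probes and were 9 of the 15154 genes that could be named. In each case the gene was read on its brightest probe, and that probe was well above background on all 12 arrays.

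All cultures were primary hippocampal neurons from Wistar embryos with no genetic modification, kept for 14 to 15 days in Neurobasal medium. The labels give E18 as the age of the embryos, the first day of the range in the study's methods. OGD cultures spent 2 h in a glucose-free buffer with sucrose in an anaerobic chamber, control cultures (Ctrl) the same time in a buffer with glucose in an ordinary incubator, and both then recovered in conditioned medium. RNA was collected after 7 h or 24 h, times that the study set before and after the onset of cell death, and 3 independent cultures gave 3 arrays in each of 4 groups. Each of the 6 slides used here carried the Ctrl and the OGD array of 1 time and 1 replicate number. The comparisons ask how the genes that make, package and clear the transmitters respond to OGD before and after the onset of death.

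Glutamate is the main excitatory and GABA the main inhibitory transmitter of the hippocampus. Neurons make GABA from glutamate with glutamate decarboxylase, pump either transmitter into synaptic vesicles with dedicated transporters, and release it. Neurons and above all astrocytes then take it up again from the extracellular space, which ends the signal and, for glutamate, limits excitotoxicity during ischemia.

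The cultures are mixed, and their RNA came from whole wells, so that fewer cells of a type and less RNA per cell cannot be told apart here. All 14 neuronal markers looked at, and all 12 interneuron markers with a probe, were well above background on the 12 arrays. So were 12 of 13 astrocyte markers and 7 of 10 microglial markers, while the microglial marker Ptprc was not above background on any array. The OGD arrays of replicate 1 were the dimmest of their groups, with a median spot intensity of 234 units at 7 h and 131 at 24 h, against 447 to 660 and 402 to 477 on the Ctrl arrays. On 3 slides the Ctrl and OGD arrays were scanned apart, by 211 min for replicates 1 and 2 at 7 h and by 177 min for replicate 1 at 24 h. The parts that RNA quantity, labelling and scan time play in the results were not tested, and values without the slides of replicate 1 are given for each gene called.

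The promoters of the vesicular glutamate transporters and of both glutamate decarboxylases are shown. These 4 genes were called lower after OGD at 7 h or 24 h, by the unadjusted limits given below. Of the 9 genes, 8 had an entry in the RefSeq promoter table (build GRCr8), with 11 windows in all. The 250 bases before the annotated start are printed 5′ to 3′ in the direction of the gene. Capitals mark the motifs searched on both strands: the cAMP response element TGACGTCA (CRE) and its short form TGACG, which the full element contains, the left part TTCAGCACC and right part GGACAGC of RE1, the element bound by the repressor REST, the hypoxia response core ACGTG, and the TATA box TATAAA.
Slc17a6, chr1:110348197-110348446, + strand: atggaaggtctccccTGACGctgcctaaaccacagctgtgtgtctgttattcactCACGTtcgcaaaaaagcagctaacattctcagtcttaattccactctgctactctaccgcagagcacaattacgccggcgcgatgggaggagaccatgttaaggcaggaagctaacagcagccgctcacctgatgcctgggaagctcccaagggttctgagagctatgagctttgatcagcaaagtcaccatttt
Slc17a7, chr1:104785955-104786204, + strand: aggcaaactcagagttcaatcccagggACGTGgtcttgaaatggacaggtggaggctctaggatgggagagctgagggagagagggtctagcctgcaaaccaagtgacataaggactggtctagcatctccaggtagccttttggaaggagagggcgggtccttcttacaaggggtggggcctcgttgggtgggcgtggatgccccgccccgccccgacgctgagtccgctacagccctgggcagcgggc
Gad1, chr3:75777202-75777451, + strand: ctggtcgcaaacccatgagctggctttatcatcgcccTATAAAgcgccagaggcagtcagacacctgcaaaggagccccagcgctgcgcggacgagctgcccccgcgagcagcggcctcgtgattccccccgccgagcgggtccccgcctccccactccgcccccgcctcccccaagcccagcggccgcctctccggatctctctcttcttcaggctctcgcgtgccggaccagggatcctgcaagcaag
Gad2, chr17:89671468-89671717, + strand: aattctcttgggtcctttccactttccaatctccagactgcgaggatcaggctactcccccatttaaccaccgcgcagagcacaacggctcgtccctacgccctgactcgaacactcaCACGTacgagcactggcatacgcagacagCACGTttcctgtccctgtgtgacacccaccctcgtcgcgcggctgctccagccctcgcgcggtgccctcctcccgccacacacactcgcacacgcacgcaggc
Slc17a7 held the hypoxia response core once, and Slc17a6 held it once beside the short CRE. Gad2 held the same core at 2 places, and Gad1 held a TATA box 213 to 208 bases before its start. The hypoxia core was found in 5 of the 8 genes (also in Slc1a2 and Slc1a3) and in 18.1% of the 27457 genes of the table, each counted once if the 250 bases before any of its starts held it. The short CRE was found in 2 of the 8 genes, Slc17a6 and Slc32a1, and in 5480 of all genes in the table. The full CRE and both RE1 parts were found in 0 of the 8 genes, and in 1.78%, 0.346% and 5.86% of all genes. The TATA box occurred in 14.1% of all genes. The hypoxia core contains the letters CG. The windows of the 8 genes held 9 to 34 CG pairs, apart from 1 Slc1a2 window with 2, against a median of 5 over all windows. The part of this base composition in the motif shares was not tested. A match of letters describes the window and is not a bound site.

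Levels are given below as log2 intensity minus the median of the array, and a difference as OGD minus Ctrl on the same log2 scale, so that −1 is a level at 50% of the control. A gene was called when its unadjusted p was under 0.05 and its fold at least 2, the limits of the study's methods, here with limma over all 12 arrays. At 7 h after OGD, 2 of the 9 genes were called lower, Slc17a6 and Slc17a7, and 0 were called higher. Among all probes 1.66% were called lower and 2.08% higher. At 24 h, 4 of the 9 were called lower, Slc17a6, Slc17a7, Gad1 and Gad2, and 0 higher, against 1.96% and 3.71% of all probes. On p under 0.05 alone, 2 genes were lower and 1 higher at 7 h (7.03% and 4.79% of all probes), and 5 were lower and 0 higher at 24 h (6.19% and 7.51% of all probes). After Benjamini-Hochberg adjustment over all probes, 0 of the 9 genes passed at either time, with a lowest adjusted p of 0.352 at 7 h and 0.269 at 24 h. The median difference of the 9 genes was −0.39 at 7 h and −0.89 at 24 h, beside −0.06 and 0.01 for all probes.

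By role, the median difference was −1.14 at 7 h and −1.16 at 24 h for the 3 genes of vesicular loading, −0.30 and −1.14 for the 2 genes of GABA synthesis, and 0.20 and −0.17 for the 4 genes of uptake. The uptake medians include the brighter Slc1a3 probe, whose spots were saturated on 3 of 3 Ctrl arrays at 7 h. The slides of replicate 1 enlarged the medians of the 3 roles. With replicates 2 and 3 only, an alternative added once the values were known, the medians were −0.65 and −0.48, −0.11 and −0.37, and 0.00 and −0.06. On those slides 0 of the 9 genes were called at either time, and Slc17a7 alone had a p under 0.05. Of the 6 calls, that of Slc17a7 at 24 h alone held with the arrays scaled to a spike-in probe, and that of Slc17a7 at 7 h alone with array quality weights. The methods' t-test kept both calls at 7 h and 0 of the 4 at 24 h.

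**Figure D1:**
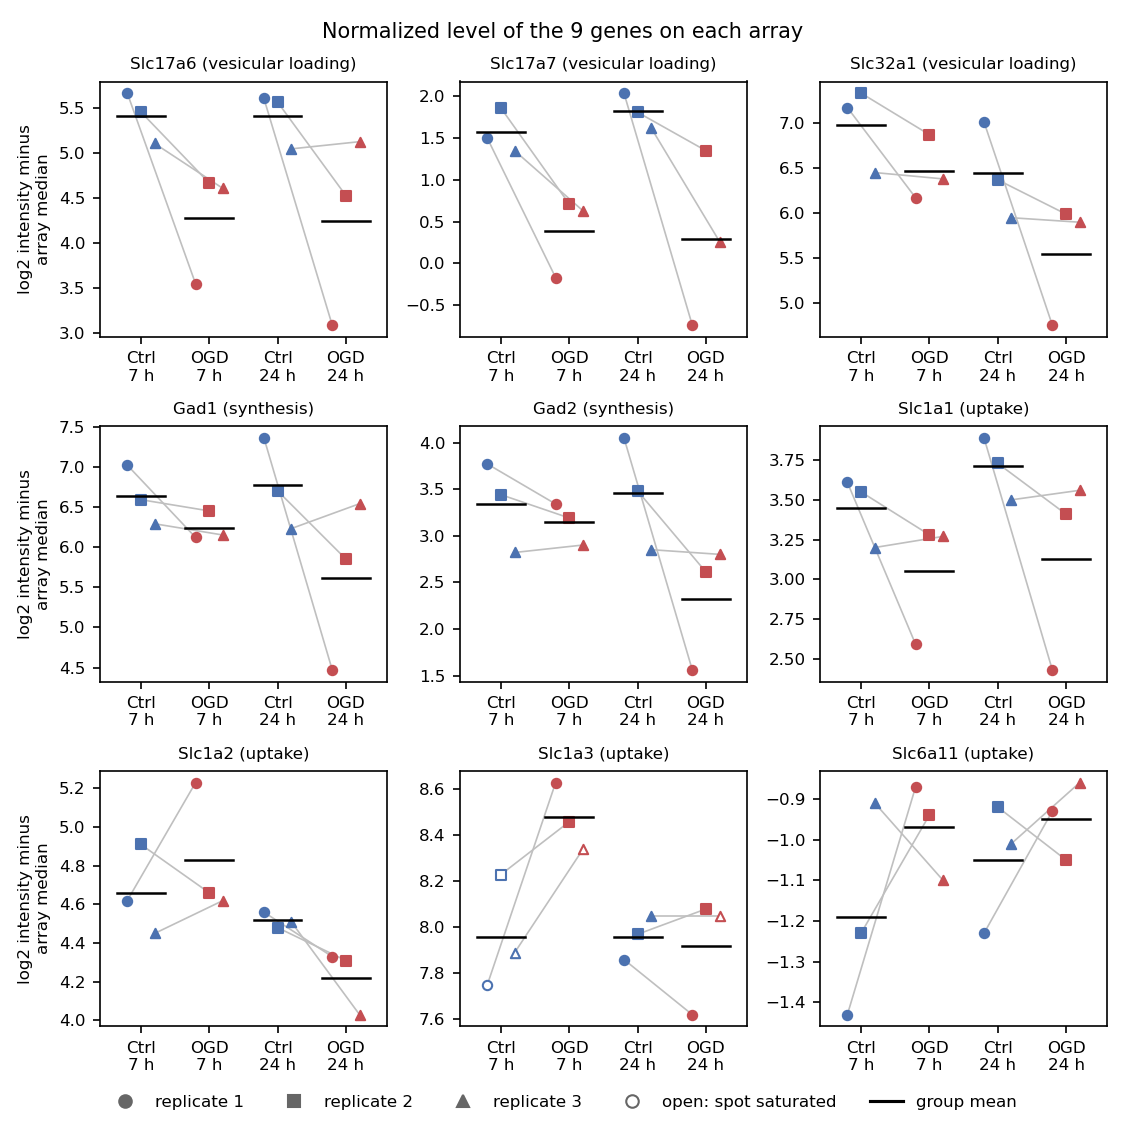
Normalized level of each of the 9 genes (log2 intensity minus the array median, each panel with its own range) on the 3 Ctrl (blue) and 3 OGD (red) arrays at 7 h and 24 h. Grey lines join the 2 arrays of a slide, black bars are group means and open symbols are saturated spots. The OGD array of replicate 1 (circles) lies lowest in its group for Slc17a6, Slc17a7, Slc32a1, Gad1 and Slc1a1 at both times, and for Gad2 at 24 h.

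Slc17a7 encodes VGLUT1, which loads glutamate into the vesicles of most hippocampal and cortical excitatory terminals. It was called lower after OGD at both times, and its call at 24 h held with any 1 array left out. At 7 h its level (probe A_44_P505721) was 1.50, 1.86 and 1.35 on the Ctrl arrays of replicates 1 to 3 and −0.17, 0.71 and 0.63 on the OGD arrays. The levels at 24 h were 2.04, 1.81 and 1.62 on the Ctrl arrays and −0.74, 1.35 and 0.26 on the OGD arrays. Every OGD array lay below every Ctrl array of its time. The difference was −1.18 at 7 h (SE 0.45, unadjusted p of 0.0232, adjusted p = 0.352), which is 44.1% of the control level. The difference at 24 h was −1.53 (SE 0.45, unadjusted p of 0.00586, adjusted p = 0.269), or 34.6% of the control level. Within the slides of replicates 1, 2 and 3 the differences were −1.67, −1.15 and −0.73 at 7 h and −2.78, −0.46 and −1.36 at 24 h, so that the level was lower after OGD on 6 of 6 slides. Both calls held with the slide as a block (limma p-values of 0.0308 and 0.0103). Leaving out any 1 array, the difference at 24 h ran from −2.06 to −1.02, with the smallest value without OGD replicate 1. At 24 h the methods' t-test did not call it (unadjusted p of 0.0676), and array quality weights brought it to −0.72, under the 2-fold limit. Scaling to the spike-in probe ended the call at 7 h (−1.96, unadjusted p of 0.0796). The call at 7 h was lost without OGD replicate 1 (−0.90, unadjusted p of 0.0931) and without Ctrl replicate 2 (−1.04, unadjusted p of 0.0725). On the slides of replicates 2 and 3 the differences were −0.94 and −0.91, under the 2-fold limit, with limma p-values of 0.0446 and 0.0498.

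Slc17a6 encodes VGLUT2, the vesicular glutamate transporter that prevails in subcortical neurons and in the developing hippocampus. It was called lower at both times, but neither call held with the slide as a block or without the OGD array of replicate 1. Its level at 7 h (probe A_42_P511118) was 5.67, 5.46 and 5.11 on the Ctrl arrays and 3.55, 4.67 and 4.61 on the OGD arrays, with no overlap. At 24 h it was 5.61, 5.57 and 5.05 on the Ctrl arrays and 3.09, 4.53 and 5.13 on the OGD arrays. The OGD array of replicate 3 was then above its own control. The difference was −1.14 at 7 h (SE 0.48, unadjusted p of 0.0376, adjusted p = 0.395) and −1.16 at 24 h (SE 0.48, unadjusted p of 0.0345, adjusted p = 0.334). Within slides it was −2.12, −0.79 and −0.50 at 7 h and −2.52, −1.04 and 0.09 at 24 h. With the slide as a block neither call held (limma p-values of 0.0687 and 0.0643). The call at 7 h was also lost without OGD replicate 1 (−0.77), Ctrl replicate 1 (−1.01) or Ctrl replicate 2 (−1.11), and that at 24 h without OGD replicate 1 (−0.58), Ctrl replicate 1 (−1.06) or Ctrl replicate 2 (−1.08). The slides of replicates 2 and 3 alone gave −0.65 and −0.48, with limma p-values of 0.0616 and 0.142. Slc17a6 and Slc17a7 are both on the study's own list of genes lower at 7 h, which was drawn from these arrays, so their direction there is not independent evidence.

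Slc32a1 encodes VGAT, which loads GABA and glycine into the vesicles of inhibitory neurons. Its difference did not reach 2-fold at either time. At 7 h its level (probe A_64_P096512) was 7.17, 7.33 and 6.45 on the Ctrl arrays and 6.17, 6.87 and 6.38 on the OGD arrays. At 24 h it was 7.01, 6.37 and 5.95 on the Ctrl arrays and 4.76, 5.99 and 5.90 on the OGD arrays. The groups overlapped at both times, although the level was lower after OGD on 6 of 6 slides. The difference was −0.51 at 7 h (SE 0.40, unadjusted p of 0.224) and −0.89 at 24 h (SE 0.40, unadjusted p of 0.0469, adjusted p = 0.360), where the slide of replicate 1 gave −2.26 and the others −0.37 and −0.05. Without OGD replicate 1 the value at 24 h was −0.50 (unadjusted p of 0.197), and on the slides of replicates 2 and 3 it was −0.21 (unadjusted p of 0.556).

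The 2 glutamate decarboxylase genes were not called at 7 h and were called lower at 24 h. Their intervals at 7 h, −1.43 to 0.64 for Gad1 on its brighter probe and −1.07 to 0.67 for Gad2, included a 2-fold lower level. Gad1 encodes GAD67, which makes most of the GABA of the cell body, and Gad2 encodes GAD65, the form enriched at terminals. At 24 h the level of Gad2 (probe A_44_P554928) was 4.05, 3.48 and 2.85 on the Ctrl arrays and 1.56, 2.61 and 2.80 on the OGD arrays. The groups did not overlap, but the highest OGD array and the lowest Ctrl array, both of replicate 3, were 0.05 apart. Its difference was −1.14 (SE 0.39, unadjusted p of 0.0151, adjusted p = 0.295), or 45.3% of the control level, and the call held with the slide as a block (unadjusted p of 0.0362). At 7 h its level was 3.77, 3.44 and 2.82 on the Ctrl arrays and 3.34, 3.19 and 2.90 on the OGD arrays, a difference of −0.20 (SE 0.39, unadjusted p of 0.627). The call at 24 h was lost without OGD replicate 1 (−0.76, unadjusted p of 0.0637) and without Ctrl replicate 1 (−0.84, unadjusted p of 0.0688). On the slides of replicates 2 and 3 the value was −0.46 (unadjusted p of 0.176).

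Gad1 was measured by a pair of probes that did not give the same picture. On the brighter one (A_64_P084971) its level at 24 h was 7.36, 6.70 and 6.23 on the Ctrl arrays and 4.47, 5.85 and 6.54 on the OGD arrays. The OGD array of replicate 3 thus lay above its control, by 0.31, while replicate 1 was lower by 2.89 on the log2 scale. The difference was −1.14 (SE 0.47, unadjusted p of 0.0335, adjusted p = 0.332), and it was not called with the slide as a block (unadjusted p of 0.0814). It was not called without OGD replicate 1 (−0.57), Ctrl replicate 1 (−0.85) or Ctrl replicate 2 (−1.18, unadjusted p of 0.0597) either, and the slides of replicates 2 and 3 gave −0.27 (unadjusted p of 0.402). At 7 h the level was 7.02, 6.59 and 6.29 on the Ctrl arrays and 6.12, 6.45 and 6.15 on the OGD arrays, and the difference was −0.39 (SE 0.47, unadjusted p of 0.419). The other probe (A_44_P243102) gave 0.37 at 7 h (SE 0.30, unadjusted p of 0.237) and −0.57 at 24 h (SE 0.30, unadjusted p of 0.0832). After centring, its direction at 7 h was therefore opposite, with 0.85, 0.20 and 0.07 on the slides of replicates 1, 2 and 3. At 24 h it was lower on 3 of 3 slides, by 0.39 to 0.80 on the log2 scale.

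**Figure D2:**
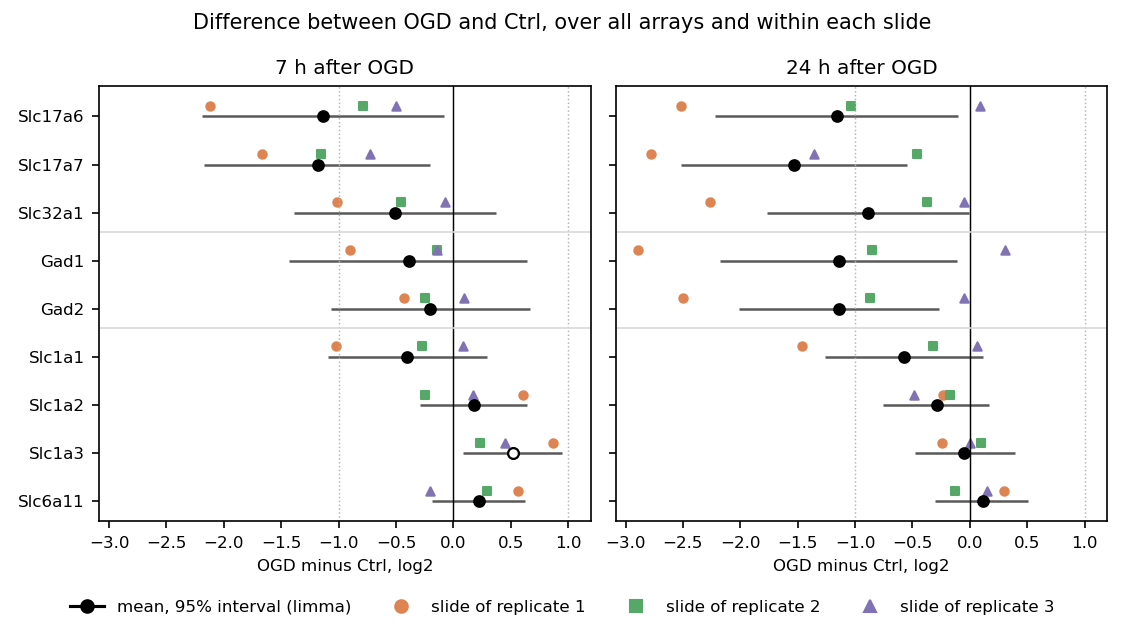
Difference between OGD and Ctrl (log2) of the 9 genes at 7 h and 24 h, as the mean over all arrays with its 95% interval from limma (black) and within the slides of replicates 1, 2 and 3 (coloured), with vesicular loading, synthesis and uptake separated by grey lines and 2-fold marked by dotted lines. The slide of replicate 1 gives the lowest value for the vesicular and synthesis genes at both times, and the open symbol marks Slc1a3 at 7 h, whose control spots were saturated.

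Of the 4 uptake genes 0 were called at either time. Slc1a1 encodes EAAC1, a glutamate transporter of neurons. Its level at 7 h (probe A_64_P112994) was 3.61, 3.55 and 3.20 on the Ctrl arrays and 2.59, 3.28 and 3.27 on the OGD arrays. By 24 h it was 3.89, 3.73 and 3.50 on the Ctrl arrays and 2.43, 3.41 and 3.56 on the OGD arrays. The groups overlapped at both times, and replicate 3 was not lower at either. The differences were −0.40 (unadjusted p of 0.224) and −0.57 (unadjusted p of 0.0931), and the interval at 24 h, −1.26 to 0.11, includes a 2-fold lower level as well as no difference. Without the OGD array of replicate 1 they were −0.17 and −0.22, and on the slides of replicates 2 and 3 −0.09 and −0.13.

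Slc1a2 encodes GLT-1, the main glutamate transporter of astrocytes, and had 2 probes. On the brighter (A_64_P033800) its level at 7 h was 4.62, 4.91 and 4.45 on the Ctrl arrays and 5.23, 4.66 and 4.62 on the OGD arrays, a difference of 0.18 (unadjusted p of 0.420) with the groups overlapping. At 24 h it was 4.56, 4.48 and 4.51 on the Ctrl arrays and 4.33, 4.31 and 4.03 on the OGD arrays. These groups did not overlap, and the difference was small, −0.29 (SE 0.21, unadjusted p of 0.189, interval −0.76 to 0.17). The other probe (A_64_P031123), designed for another Slc1a2 transcript, gave −0.01 at 7 h (unadjusted p of 0.979) and −0.46 at 24 h (unadjusted p of 0.0433, adjusted p = 0.354). Both probes were lower on 3 of 3 slides at 24 h. The slide of replicate 1 did not set the value of the brighter probe, with −0.23 there and −0.17 and −0.49 on the slides of replicates 2 and 3. On the other probe it gave the largest difference, −0.74, against −0.31 and −0.32.

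Slc1a3 encodes GLAST, the other glutamate transporter of astrocytes, and its brighter probe (A_64_P113725) reached the limit of the scanner. At 7 h it was saturated on 3 of 3 Ctrl arrays, with intensities of 63300 to 64800 units, and on 1 of 3 OGD arrays. Its level there, 7.75, 8.23 and 7.89 on the Ctrl arrays against 8.63, 8.46 and 8.34 on the OGD arrays, accounts for the 1 gene with p under 0.05 in the higher direction (unadjusted p of 0.0235). The control values are only lower bounds, and no fold is given for them. The other probe (A_64_P021516) was saturated on no array, and at 7 h read 5.11, 5.40 and 5.27 on the Ctrl arrays and 5.37, 5.10 and 5.41 on the OGD arrays. It gave a difference of 0.03 at 7 h (unadjusted p of 0.886, interval −0.48 to 0.55) and −0.09 at 24 h (unadjusted p of 0.715). At 24 h the brighter probe, saturated on 1 OGD array, gave −0.05 (unadjusted p of 0.822).

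Slc6a11 encodes GAT-3, which takes up GABA mainly into astrocytes. Its level at 7 h (probe A_44_P391345) was −1.43, −1.23 and −0.91 on the Ctrl arrays and −0.87, −0.94 and −1.10 on the OGD arrays. Its level at 24 h was −1.23, −0.92 and −1.01 on the Ctrl arrays and −0.93, −1.05 and −0.86 on the OGD arrays. The groups overlapped at both times, and the differences were 0.22 (interval −0.19 to 0.62) and 0.11 (interval −0.30 to 0.51), with limma p-values of 0.257 and 0.569.

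Whether the response at 24 h differed from that at 7 h was tested with the interaction of treatment and time. On p under 0.05, 0 of the 9 genes passed in limma, against 3.58% of all probes. The difference between the responses was −0.94 for Gad2 (SE 0.56, unadjusted p of 0.120) and −0.75 for Gad1 (SE 0.66, unadjusted p of 0.283). For Slc17a7 it was −0.35 (SE 0.63, unadjusted p of 0.590) and for Slc17a6 −0.02 (SE 0.68, unadjusted p of 0.973). The call of Gad1 and Gad2 at 24 h alone is therefore not shown to be a difference between the times. By contrast the second Gad1 probe passed without adjustment (−0.94, SE 0.42, unadjusted p of 0.0477, adjusted p = 1.0).

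Differences between a pair of probes on the same array do not depend on how arrays are centred. The ratio of Slc17a7 over Slc32a1, a vesicular glutamate over the vesicular GABA transporter, was lower after OGD by 0.65 on the log2 scale as the mean of both times, with changes of −0.67 at 7 h and −0.64 at 24 h. It was lower on 6 of 6 slides, from −1.30 to −0.09. The two-sided exact permutation test over arrays within times gave p = 0.02 (smallest possible 0.005), or 0.06 after adjustment over the 3 ratios computed, so that it did not pass the correction. With another background correction (normexp) the change of this ratio was 0.08. The ratio of Slc17a6 over Slc17a7 changed by 0.21 (exact p = 0.54), with 4 slides higher and 2 lower. The ratio of the astrocyte transporters, Slc1a2 over Slc1a3, changed by −0.03 (exact p = 0.885) on the Slc1a3 probe that was not saturated, and no change is given on the brighter probe because of its saturated spots.

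Markers of the cell types in the cultures are given beside these results. The 14 neuronal markers were below their controls in 14 of 14 cases at 24 h, with a median of −0.61, 7 of them with p under 0.05, and their summed level was 1020 to 1310 on the Ctrl and 668 to 1060 on the OGD arrays (linear scale, array median of 1). At 7 h their median was −0.41 and the sums were 895 to 1150 against 984 to 1200, so that they overlapped at both times. The 8 markers of pyramidal and granule neurons with a probe had medians of −0.05 at 7 h and −0.82 at 24 h, where their sum was 145 to 234 against 32.3 to 120. The 12 interneuron markers had medians of −0.21 and −0.37, with sums of 240 to 407 against 328 to 419 at 7 h and 194 to 638 against 225 to 291 at 24 h. For the 13 astrocyte markers the medians were 0.13 and −0.11, and their sum was higher on the OGD arrays at both times, 1240 to 1330 against 1460 to 1920 at 7 h and 1360 to 1490 against 1500 to 1630 at 24 h. Of these 13 markers, however, 2 were below their controls at 7 h and 8 at 24 h. The 10 microglial, 11 oligodendrocyte and 7 vascular and fibroblast markers had, in this order, median differences of 0.33, −0.14 and −0.80 at the earlier time. At the later time they were 0.24, 0.08 and 0.32. The part of cell composition in the results was not tested. On the slides of replicates 2 and 3 the medians at 24 h were −0.31 for neurons, 0.13 for interneurons, −0.54 for pyramidal and granule neurons and 0.20 for astrocytes.

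**Figure D3:**
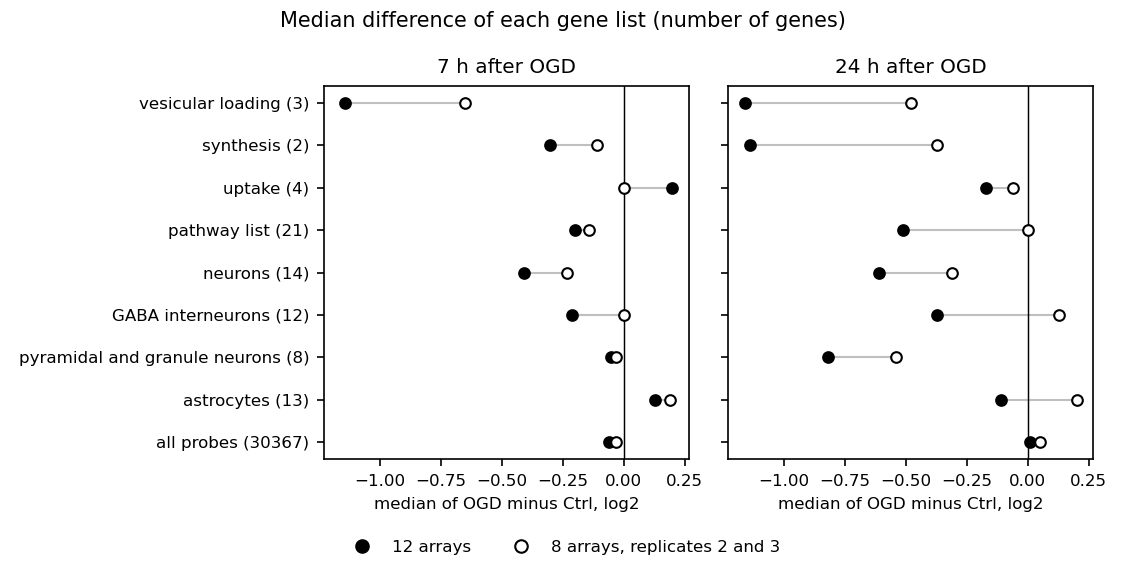
Median difference between OGD and Ctrl (log2) of each gene list at 7 h and 24 h, over all 12 arrays (filled) and over the 8 arrays of replicates 2 and 3 (open), with the number of genes in parentheses. At 24 h the medians of vesicular loading and synthesis go from −1.16 and −1.14 to −0.48 and −0.37 without replicate 1.

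The other genes of the pathway were taken from a list of 24, of which 21 had a probe. At 7 h, 1 of the 21 was called higher and 0 lower, against 2.08% and 1.66% of all probes, with a median of −0.20 and a range of −0.90 to 1.35. At 24 h, 1 was called higher and 1 lower, against 3.71% and 1.96% of all probes, with a median of −0.51 and a range of −1.10 to 1.02. On the slides of replicates 2 and 3 the medians were −0.14 and 0.00, with 1 gene called higher at 7 h and 0 genes called at 24 h. Slc1a5 encodes ASCT2, a transporter of glutamine and other neutral amino acids, and was the gene called higher. Its level was 0.85, 0.87 and 1.58 on the Ctrl arrays and 2.29, 2.34 and 2.73 on the OGD arrays at 7 h. At 24 h it was −0.02, 0.52 and 0.97 on the Ctrl arrays and 2.07, 1.11 and 1.36 on the OGD arrays. The groups did not overlap at either time, and the differences were 1.35 (SE 0.33, unadjusted p of 0.00194, adjusted p = 0.248) and 1.02 (SE 0.33, unadjusted p of 0.0106, adjusted p = 0.290). With the arrays scaled to a spike-in probe they were 0.57 (unadjusted p of 0.609) and 0.00 (unadjusted p of 0.999), beside medians of −0.83 and −1.01 for all probes. Slc1a5 also stands on a list the study drew from these arrays. The call at 7 h held with any 1 array left out, and that at 24 h was lost without OGD replicate 1 (0.74) or Ctrl replicate 1 (0.77). The slides of replicates 2 and 3 gave 1.31 (unadjusted p of 0.00482) and 0.49 (unadjusted p of 0.159). Normexp ended both calls, with 0.82 and 0.59 (limma p-values of 0.0187 and 0.0751), and the call at 24 h was also lost with the methods' t-test (unadjusted p of 0.0656) and with array quality weights (0.66).

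Slc25a22, a carrier that brings glutamate into mitochondria, was the gene called lower, at 24 h. Its level was 7.03, 6.44 and 6.06 on the Ctrl arrays and 4.55, 5.78 and 5.91 on the OGD arrays, with no overlap. The difference was −1.10 (SE 0.38, unadjusted p of 0.0164, adjusted p = 0.298). The OGD array of replicate 1 was the lowest, and without it the value was −0.67 and the call was lost (unadjusted p of 0.0628). Without Ctrl replicate 1, which also ended the call, it was −0.84. On the slides of replicates 2 and 3 it was −0.41 (unadjusted p of 0.227). The call held with the slide as a block (unadjusted p of 0.0413), and was lost with the methods' t-test and array quality weights (−0.69), and, just under the 2-fold limit, with the 75th percentile (−0.98) or quantile normalization. Below the 2-fold limit, Slc1a4 (a neutral amino acid transporter), Got1 and Got2 (the aspartate aminotransferases) were lower with p under 0.05 at both times, by 0.84, 0.88 and 0.69 on the log2 scale at 7 h. Their values at 24 h were −0.76, −0.95 and −0.58. Among all probes 7.03% at 7 h and 6.19% at 24 h were lower with p under 0.05. The limma adjusted p-values of the 3 genes ran from 0.262 to 0.396 at 7 h and from 0.272 to 0.321 at 24 h. On the slides of replicates 2 and 3, 3 of the 21 pathway genes were lower with limma p under 0.05 at 7 h and 0 at 24 h. Slc1a4, Got1 and Got2, each lower on 6 of 6 slides, were named after their values were seen, so the slides give no separate support.

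**Figure D4:**
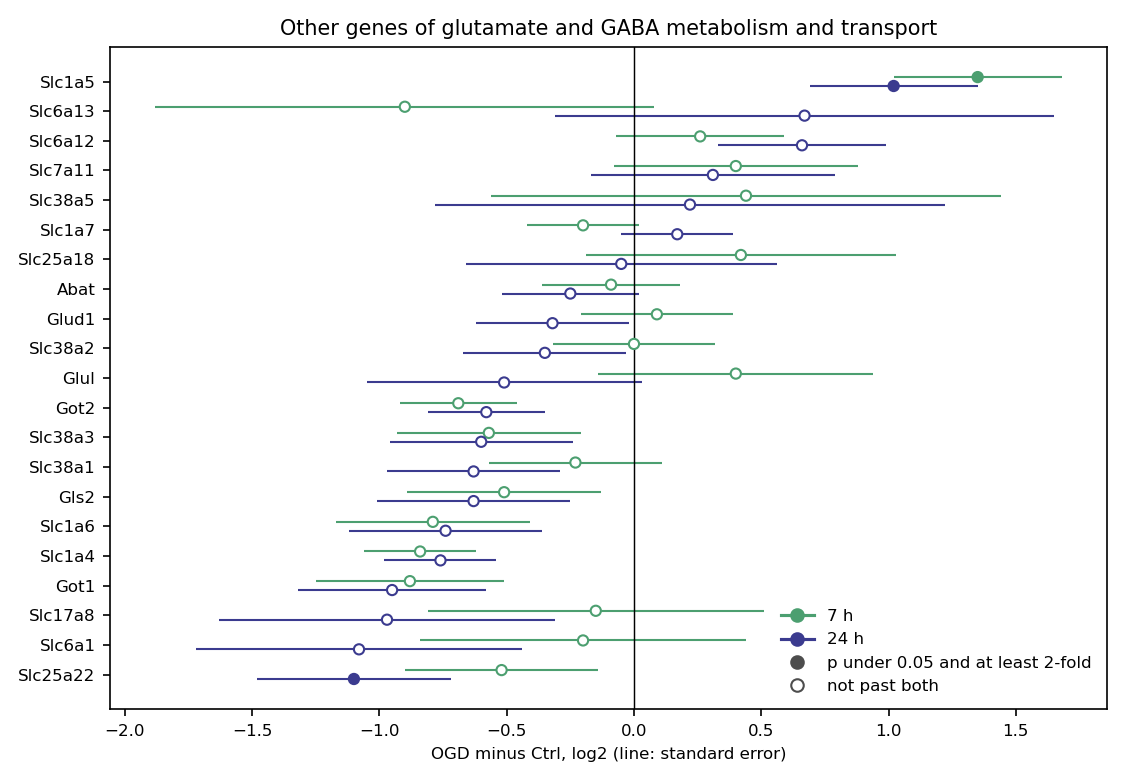
Difference between OGD and Ctrl (log2, line: standard error) of the 21 other pathway genes at 7 h (green) and 24 h (blue), with filled symbols for genes called at p under 0.05 and at least 2-fold. Slc1a5 is the one gene called higher, at 1.35 and 1.02, and Slc25a22 is the one called lower, at −1.10 at 24 h.

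Genes with a profile most like that of a gene of each role were sought among 10878 named genes that were well above background on all arrays, as the smallest root mean square difference of gene-centred log2 levels over the 12 arrays. For Slc17a7, whose level had an SD of 0.84 over the arrays, the nearest were Masp1 (0.17), Susd4 (0.19) and Madd (0.20). For Gad2 (SD 0.62) they were Bicdl1 (0.14), Pnck (0.17) and Sgsm1 (0.18). The profile of Slc1a2 (SD 0.29) was nearest to Senp2 (0.14), Map9 (0.16) and Fkbp2 (0.17). These distances are descriptions over arrays that share slides and replicate numbers.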

How the data were processed

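The 12 RNA samples, 3 in each of 4 groups, were labelled with Cy3 and hybridized to one-color Agilent rat arrays of 44254 spots, 42877 of them not control spots. Per the file headers and the study's methods, the authors read the deposited intensities with Feature Extraction 10.5.1.1, which subtracted the background from each spot and detrended it. The authors' deposited log2 values are these intensities centred on the median of each array, by the study's methods with BRB-ArrayTools, and were used as an alternative. The array number limits precision, and replicate correlations ran from 0.957 to 0.992.

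The intensities were put on the log2 scale with no pseudocount, the spots of each probe, less those flagged as outliers, were averaged (70 of 364404 probe values were then missing), and the array median over all probes was subtracted. Through their RefSeq accession 18004 probes were named and 12363 were not. Python 3.11.15 and limma 3.58.1 in R 4.3.3 were used. The main test was limma (lmFit, eBayes, 8 residual and 2.64 prior degrees of freedom) on the 4 groups with no block, two-sided, with Benjamini-Hochberg adjustment over all 30367 probes. Probes not above background were kept. The 9 genes, the pathway and marker lists and the tests were chosen with earlier results of these data known, and so give no independent support. Named by rule were the 9 genes, pathway genes called at either time and the nearest profiles, and Slc1a4, Got1 and Got2 were added after their values were seen. Other probes of a gene are given where they differ.

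Slides held both groups, so a fit with the slide as a block and the differences within slides are given. Deviations from the group means of arrays with the same number on a slide had correlations of -0.194 to 0.312 over 20870 probes. For Ctrl and OGD arrays of the same time with different numbers they ran from -0.305 to 0.263. With 3 arrays a group and overlapping ranges, this check cannot decide whether the replicate numbers pair the arrays. Nothing in the labels ties a number to a culture. Alternatives used the 75th percentile of each array, a quantile normalization, the 1 usable of 10 spike-in probes, normexp (offset 50, on median spot signals), a dim-probe filter, the authors' log2 values, the methods' t-test, each time alone, slide blocks, array weights, the mean over probes, each array left out, and, added later, the slides of replicates 2 and 3 alone and the other Slc1a3 probe. The promoter and probe sequences of some genes were not used here. The pathway list of 24 genes, 21 of them with a probe, leaves out 1 further gene that is not reported here.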

Additional observations from a re-analysis of the deposited data

Results flagged for a closer look

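The second Gad1 probe (A_44_P243102) was flagged because its interaction of treatment and time passed p under 0.05 without adjustment, as 3.58% of all probes did. The interaction was -0.94 on the log2 scale (SE 0.42, unadjusted p of 0.0477, adjusted p = 1.0), so a difference between the times is not shown. After median centring it was 0.37 above its control at 7 h, on 3 of 3 slides, and at -0.57 at 24 h, lower on 3 of 3 slides. At 7 h the slides of replicates 1, 2 and 3 gave 0.85, 0.20 and 0.07. The probe was dim. Before centring it read 325, 305 and 278 units on the Ctrl arrays at 7 h and 241, 294 and 222 on the OGD arrays. The brighter Gad1 probe gave an interaction of -0.75 (unadjusted p of 0.283).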

How the results depend on the processing

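Of the 9 genes, 2 were called at 7 h and 4 at 24 h. With the replicate block (slide fixed) these counts were 1 and 2, with array quality weights 1 and 0, with the spike-in probe 0 and 1, and on the slides of replicates 2 and 3 alone 0 and 0. At 24 h the methods' t-test called 0 and limma on each time alone 2. With 1 array left out the counts ran from 0 to 2 at 7 h and from 1 to 5 at 24 h, and for the interaction (0 genes) from 0 to 1, with 1 also for the mean over probes. Of the 21 pathway genes, 1 was called at 7 h and 2 at 24 h. At 7 h the 1 gene was higher, and the count was 0 with the spike-in probe, 2 with normexp (both lower, without Slc1a5), and 1 to 2 with 1 array left out. At 24 h it was 1 lower and 1 higher, against 2 lower and 0 higher with normexp. It was 1 with the 75th percentile or quantile normalization, 0 with the spike-in probe, the t-test, array weights or replicates 2 and 3 alone, and 0 to 5 with 1 array left out. Normexp reversed the ratios of Slc17a7 over Slc32a1 (0.08) and Slc17a6 over Slc17a7 (-0.48), and quantile normalization that of Slc1a2 over Slc1a3 (0.07). The latter ratio, -0.29 on the brighter Slc1a3 probe and -0.25 by the mean over probes, rests on saturated spots in these settings and is not read as a change, and it was -0.03 on the other probe. With 1 array left out these 3 ratios ran from -0.81 to -0.56, from -0.02 to 0.40 and from -0.40 to -0.21. The exact sign-flip test over slides, the ratios' replicate block, gave p = 0.0312 for Slc17a7 over Slc32a1, the smallest it can give. Small differences turned sign in uptake genes and Gad2: Slc1a2 at 7 h to -0.60 (spike-in), -0.38 (normexp), -0.10 (weights), -0.04 (replicates 2 and 3) and -0.02 (without OGD replicate 1), Slc1a3 at 7 h to -0.03 (quantile), -0.26 (spike-in) and -0.10 (normexp), Slc1a3 at 24 h to 0.07 (75th percentile), 0.08 (weights), 0.05 (replicates 2 and 3) and 0.10 (without OGD replicate 1), Slc6a11 to -0.56 and -0.92 (spike-in) and -0.07 at 24 h (weights), and Gad2 at 7 h to 0.02 (without Ctrl replicate 1). Leaving out arrays these 3 differences (Gad2 and Slc1a2 at 7 h, Slc1a3 at 24 h) ran from -0.46 to 0.02, -0.02 to 0.30 and -0.13 to 0.10. The cause was not tested. The spike-in probe moved the median of all probes to -0.83 at 7 h and -1.01 at 24 h. Relative to that median Slc17a7 was at -1.13 and -1.54. These are the values of the main scaling by construction, since both scalings subtract a single value per array, so they are no separate check. Of all calls 55.5% were higher at 7 h and 65.4% at 24 h, against 67.0% and 74.9% with the 75th percentile, 22.9% and 3.69% with the spike-in probe and 70.2% and 25.6% with normexp. On their brightest probes the 9 genes were above background on all arrays, and saturation limited Slc1a3. Some signals were low. Slc6a11 read 39.4 to 142 units and lay below the median of every array. Slc17a7 fell to 45.2 units on the OGD array of replicate 1 at 24 h. The part of low signal in the results of these genes was not tested.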
